A study of Rattus norvegicus with 5 samples.

Results

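The genes of apical-basal polarity and of the apical membrane were examined in FRT cells, an epithelial line from Fischer rat thyroid, grown as follicles in 3D or as monolayers in 2D. The set held 41 genes, chosen by name with earlier results of these data known. It covered the Par, Crumbs and Scribble complexes, their Lin7 and Cask scaffolds, the Par-1 and Lkb1 kinases and 3 exchange factors of small GTPases. It also held the ezrin, radixin and moesin (ERM) linkers with their Nherf adaptors, and 6 proteins of the apical membrane. Probes were paired with rat symbols through their RefSeq accession, and 37 of the 41 genes were measured among 15154 genes in all. Patj, Llgl1, Lin7a and Muc1 were not analysed here, because no probe was paired with their symbols.

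RNA was taken on day 5 of culture and hybridised to 5 Agilent 2-colour rat arrays. On 4 arrays, 1 of 4 biological replicates of FRT follicles in Matrigel carried Cy5, and a pool of 4 biological replicates of confluent 2D monolayers carried Cy3. On the last array the dyes were swapped, and a pool of the 3D follicles was set against the 2D pool. The strain was Fischer on both sides, no gene was altered or silenced in either group, RNA integrity numbers were 8.1 to 9.6, and 100 ng of RNA was labelled. Every array shared the 1 pool of monolayers, so the tests measured the spread among follicle arrays and left out the spread among 2D cultures. The 3D pool on the swapped array was made of 4 biological replicates, and the labels do not say whether these were the same 4 cultures. If they were, the 5 arrays stand for 4 follicle cultures and are not independent. FRT is a single line that has lost much of the thyroid hormone program. In these whole-culture RNA samples, fewer cells of a type and less RNA per cell cannot be told apart.

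All values below are log2 ratios of 3D over 2D unless a level is named, and a gene was called higher or lower where its limma adjusted p was under an FDR of 0.01. From 45% to 50.9% of probes were well above background per channel, and 0 spots were saturated. The log2 ratios of replicate arrays correlated with r from 0.871 to 0.946 across genes, and those of the swapped array with each of them at 0.734 to 0.765. Epithelial markers were well above background for all 8 genes measured. Of the 9 thyroid markers, Pax8, Foxe1, Hhex and Cdh16 were well above background on all 5 arrays, and Tg, Tshr, Nkx2-1 and Slc5a5 on none. Of markers of other cell types, 4 of 8 for fibroblasts, 1 of 6 for endothelium and 3 of 7 for leukocytes were above background on at least 1 array, and of these 21 genes Pdgfra alone was called, with a ratio of 0.55. The part of other cell types in the results was not tested.

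An epithelial cell divides its surface into an apical face, which looks onto a lumen, and a basolateral face, which meets neighbours and matrix. The Par complex (Par3, Par6, atypical protein kinase C and Cdc42) and the Crumbs complex (Crumbs, Pals1 and Patj) act at the apical side and at the junctions, while Scribble, Lgl and Dlg act at the lateral side and oppose them. Atypical protein kinase C phosphorylates Lgl, and Par-1 kinases (Mark) phosphorylate Par3, so that each side keeps the other out. Ezrin, radixin and moesin tie the apical membrane to actin in microvilli, and Nherf adaptors tie them to membrane proteins. In a thyroid follicle the apical face encloses the colloid. All of these proteins work largely through their place in the cell and their phosphorylation, which RNA does not measure.

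Of the 37 measured genes, 12 were higher and 4 were lower in 3D, and 21 did not pass. That is 43.2% of the measured genes, beside 25.9% of all genes tested, 14.4% being higher and 11.5% lower. The set was better detected than genes at large: 30 of the 37 genes were well above background on all 5 arrays in both conditions, and 15 of these (50%) were called, beside 48.8% of the 7590 genes measured as well. The share of polarity genes that changed was therefore near that of any well-measured gene. Their ratios had the same sign on all 5 arrays for 21 of the 37, beside 36.3% of all genes. All 16 called genes were among these 21, and over all genes 3805 of the 3918 called had the same sign throughout. The median ratio of the 37 was 0.04, against 0.00 over all genes. Only Prom1 and Folr1 changed by 2-fold or more, both upwards.

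The proteins of the apical membrane showed the largest changes. Of 5 measured, Prom1, Folr1, Dpp4 and Podxl were called higher and none lower, and the median of the 5 was 0.94. That is 80% called, beside 25.9% of all genes, in a list chosen with earlier results known. All 4 genes well above background on all arrays in both conditions were called, beside 48.8% of all such genes. The median of the group was 1.16, 0.81, 0.95 and 0.88 in replicates 1 to 4 and 0.75 on the swapped array. With 5 genes this median is the value of 1 gene, Folr1 in replicate 1 and Dpp4 on the other arrays. The fitted 0.94 is also that of Dpp4, for which a dimmer probe gave 0.41. Podxl and Anpep lay below the median on every array. Anpep, the brush-border peptidase aminopeptidase N, was not above background on any array, with ratios from -0.19 to 0.09.

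**Figure D1:**
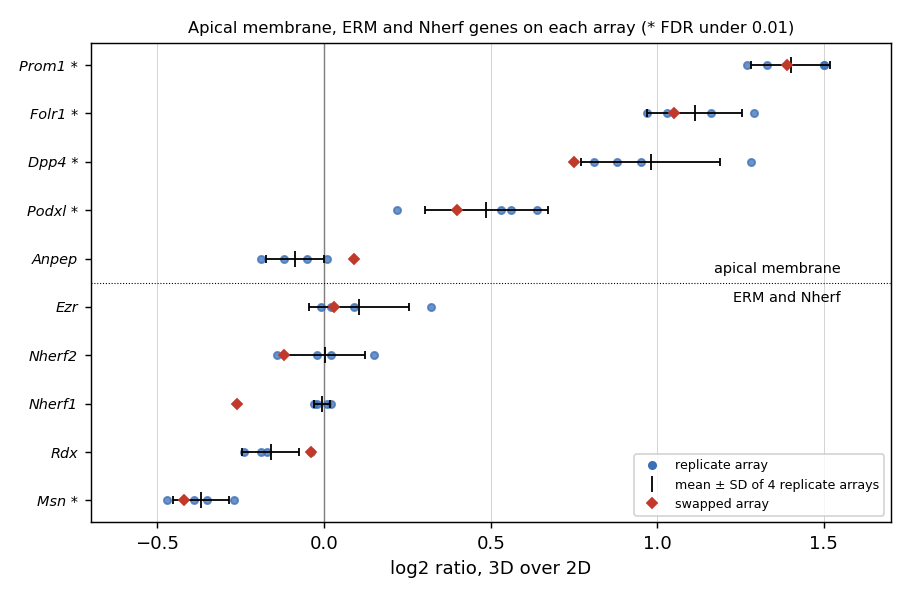
Log2 ratio of 3D over 2D (horizontal axis) for each measured apical membrane, ERM and Nherf gene, with blue points for the 4 replicate arrays, black bars for their mean ± SD and red diamonds for the swapped array. Prom1, Folr1, Dpp4 and Podxl lie to the right of 0 on every array, Msn lies to the left on every array, and Ezr lies around 0.

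Prom1 encodes prominin-1, a membrane glycoprotein that binds cholesterol and sits on microvilli and other protrusions. Its ratios were 1.33, 1.27, 1.50 and 1.50 in replicates 1 to 4 and 1.39 on the swapped array. All 5 arrays lay within a narrow band, far above 0. The mean of the replicate arrays was 1.40 ± 0.12 (SD, n = 4), and the fitted ratio of 1.40 (SE 0.05) was a 2.64-fold increase, with a limma adjusted p of 8.01e-08. A probe of like brightness for the same gene gave 1.32. Its average log2 intensity was 14.81 in 3D and 13.41 in 2D, far above background in both.

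Folr1 encodes folate receptor alpha, which is held in the apical membrane by a glycolipid anchor and takes up folate. The array values were 1.16, 1.29, 1.03 and 0.97 for the replicates and 1.05 with the dyes swapped. None of the arrays fell below 0.97. The fold was 2.14 and the fitted ratio 1.10 (SE 0.05, 95% interval 0.98 to 1.22, limma adjusted p = 3.97e-07).

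Dpp4 is dipeptidyl peptidase IV, an exopeptidase of the apical membrane that is widely used to follow protein sorting in polarised cells. It gave 1.28, 0.81, 0.95 and 0.88 in the replicates and 0.75 on the swapped array. Replicate 1 was the highest and the swapped array the lowest, and all were above 0. The fitted increase was 1.91-fold, a ratio of 0.94 (SE 0.07, limma adjusted p = 7.54e-06). A second, dimmer probe rose less, with a ratio of 0.41, and the mean of both probes gave 0.67.

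Podxl encodes podocalyxin, a sialomucin that coats the apical surface and is among the first proteins delivered to a new lumen. Its ratios were 0.53, 0.22, 0.56 and 0.64 in the replicates and 0.40 on the swapped array. Replicate 2 was the lowest, though still above 0. The fitted ratio was 0.47 (SE 0.06), a 1.38-fold increase with a limma adjusted p of 0.000211.

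The promoters of the 3 called apical membrane genes that had one in the RefSeq table are shown here because these genes moved together. Each window runs from 250 bases before to 50 bases after the annotated start, on build GRCr8, 5′ to 3′ on the gene's strand. Capitals mark any of 5 motifs searched on both strands: the GC box, with the letters GGGCGG, the CCAAT box, named for its letters, the TATA box, searched as TATAAA, the E-box that is read by Snail and Zeb factors, searched as CAGGTG, and the core of the motif of Pax2, Pax5 and Pax8, searched as GCGTGAC. Copies that share a base were each counted.
Prom1, chr14:71202395-71202694, plus strand: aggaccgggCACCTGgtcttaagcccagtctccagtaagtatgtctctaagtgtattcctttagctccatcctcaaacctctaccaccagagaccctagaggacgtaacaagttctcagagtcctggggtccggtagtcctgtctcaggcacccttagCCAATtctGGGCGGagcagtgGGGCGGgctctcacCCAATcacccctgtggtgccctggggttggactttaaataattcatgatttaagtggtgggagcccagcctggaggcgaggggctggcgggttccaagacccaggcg
Dpp4, chr3:67452373-67452672, minus strand: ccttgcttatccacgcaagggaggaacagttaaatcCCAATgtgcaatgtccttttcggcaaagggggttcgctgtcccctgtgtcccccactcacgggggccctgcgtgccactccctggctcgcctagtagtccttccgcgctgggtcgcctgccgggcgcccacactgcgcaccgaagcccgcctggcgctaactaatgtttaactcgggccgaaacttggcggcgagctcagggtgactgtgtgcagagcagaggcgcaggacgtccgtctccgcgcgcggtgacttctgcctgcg
Podxl, chr4:61149082-61149381, minus strand: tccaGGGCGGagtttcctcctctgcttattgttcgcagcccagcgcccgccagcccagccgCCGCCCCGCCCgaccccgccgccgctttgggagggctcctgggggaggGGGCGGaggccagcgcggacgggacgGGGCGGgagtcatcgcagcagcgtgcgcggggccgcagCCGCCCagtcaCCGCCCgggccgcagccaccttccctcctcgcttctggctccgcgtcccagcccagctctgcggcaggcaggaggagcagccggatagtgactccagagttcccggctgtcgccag
The 3 windows had no common architecture by these letters. Prom1 had 2 GC boxes, 2 CCAAT boxes and 1 E-box, Dpp4 had 1 CCAAT box, and Podxl had 7 GC boxes and a GC content of 74.7%. A second annotated start of Prom1 held none of the motifs in its window. Over the whole set, 34 of 41 genes had a window, 36 windows in all. Of these, 27 held a GC box, beside 33.1% of 33469 windows in the genome table, and their median GC content was 66.7%, beside 51.7%. The CCAAT box was found in 15 windows (37.5% of all windows hold it), the TATA box in 3 (14.2%), the E-box in 10 (18.8%) and the Pax core in 0 (2%). Motifs made of G and C are met more often where GC content is high, and a match is a description of the letters, not of binding.

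The ERM linkers and Nherf adaptors that hold apical proteins to actin did not rise with them. Of 5 measured, none was called higher, beside 14.4% of all genes. Msn was lower, so 20% were called, beside 25.9% of all genes. Of the 4 well above background on all arrays in both conditions, 25% were called, beside 48.8% of all such genes. Counts this small do not set the group apart from genes at large. The median was -0.05. Ezr, encoding ezrin, the usual marker of the apical face of thyroid cells, gave 0.32, 0.02, 0.09 and -0.01 in the replicates and 0.03 on the swapped array. Replicate 1 stood above the others, which lay close to 0. The fitted ratio of Ezr was 0.09 with a 95% interval of -0.03 to 0.21 (limma adjusted p = 0.26), so an increase larger than 0.21 lay outside the interval. Its average log2 intensity was 13.47 in 3D and 13.38 in 2D, so ezrin RNA was well detected in monolayers and follicles.

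Msn encodes moesin, the ERM protein that predominates in endothelial and blood cells and is also made by many epithelial lines. Its ratios were -0.27, -0.39, -0.35 and -0.47 in the replicates and -0.42 on the swapped array. All 5 arrays were below 0, and the swapped array fell within the range of the others. The fitted ratio fell by 0.38 on the log2 scale (SE 0.04, limma adjusted p = 8.88e-05), which is 1.3-fold lower in 3D. Rdx, encoding radixin, was below 0 on every array, from -0.24 to -0.04, and its fitted ratio of -0.14 did not pass (limma adjusted p = 0.0443). Nherf1, which links ezrin to channels and transporters, had a ratio of -0.05 that rested on the swapped array, at -0.26 against -0.03 to 0.02 in the replicates. Nherf2 was not above background on any array.

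Of the 5 called genes of the polarity complexes, 4 belonged to the Par complex. Of 8 measured, Pard3, Pard6a, Prkci and Prkcz were higher, none was lower, and the median ratio was 0.20. Among the 7 well above background on all arrays in both conditions, that was 57.1%, near the 48.8% of all such genes. Each increase was between 1.19-fold and 1.4-fold.

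Pard3 encodes Par3, the scaffold that recruits the complex to the junctions. Its ratios were 0.40, 0.55, 0.68 and 0.61 in the replicates and 0.22 on the swapped array. The swapped array was the lowest, but all 5 were above 0. The fitted ratio was 0.49 (SE 0.07), 1.4-fold, with a limma adjusted p of 0.00029. Its paralogue Pard3b, which does not bind atypical protein kinase C, ranged from -0.42 to 0.25 and did not pass (limma adjusted p = 0.573).

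Prkci and Prkcz encode the atypical protein kinases C iota and zeta, the catalytic subunits of the complex. Prkcz gave 0.46, 0.47, 0.39 and 0.54 in the replicates and 0.46 on the swapped array. The swapped array fell among the replicates, whose mean was 0.46 ± 0.06 (SD, n = 4). The fitted ratio of Prkcz was 0.46 (SE 0.04), or 1.38-fold, with a limma adjusted p of 1.46e-05. Prkci gave 0.46, 0.33, 0.28 and 0.35 in the replicates but 0.05 on the swapped array. The fitted ratio of 0.30 (SE 0.06) passed with a limma adjusted p of 0.00287, while a dimmer probe for Prkci gave 0.03 and the mean of both probes, 0.16, did not pass (limma adjusted p = 0.0421).

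Pard6a encodes a Par6 adaptor, which joins Cdc42 to atypical protein kinase C. It gave 0.14, 0.05, 0.37 and 0.35 in the replicates and 0.33 on the swapped array. All were above 0, with replicate 2 close to it, and the fitted ratio of 0.25 (SE 0.06) passed narrowly (limma adjusted p = 0.00692). The other Par6 genes were not called: Pard6b lay between -0.14 and 0.28, and Pard6g was not above background on any array. Cdc42, the GTPase that activates the complex, was above 0 on all 5 arrays, from 0.04 to 0.23, and its ratio of 0.16 did not pass at this FDR (limma adjusted p = 0.0157).

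Fitted ratios in the Crumbs complex were small, from -0.17 to 0.13, with a median of 0.05. Of 4 measured genes, Crb3 was lower and the other 3 did not pass. That is 25%, near the 25.9% of all genes. Of the 3 well above background on all arrays in both conditions, 33.3% were called, beside 48.8% of all such genes. Crb3, the Crumbs protein of most epithelia, gave -0.22, -0.12, -0.22 and -0.14 in the replicates and -0.14 on the swapped array. The 5 arrays lay close together below 0, and the ratio fell by 0.17 on the log2 scale (SE 0.04, limma adjusted p = 0.00837), or 1.12-fold lower. The sign of this small change depended on the normalization, as it turned to 0.37 with median centring in place of loess. With a dye term added to that centring it was -0.11 and did not pass (limma adjusted p = 0.2). The other Crumbs gene, Crb2, was above background on 2 arrays in 3D and 1 in 2D, with ratios from -0.10 to 0.10. Pals1, the scaffold that binds the Crumbs tail, gave 0.25, 0.24, -0.19 and -0.09 in the replicates and 0.25 on the swapped array. Its replicates fell on both sides of 0, and its ratio of 0.09 did not pass (limma adjusted p = 0.41). Mpdz, the Patj-like scaffold also known as Mupp1, was above 0 on every array at 0.08 to 0.28, with a fitted ratio of 0.13 (limma adjusted p = 0.0505).

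The Crb3 window is shown because Crb3 was the called gene of this complex and had 3 copies of the E-box, along with 5 GC boxes and 1 CCAAT box. Capitals mark the same 5 motifs.
Crb3, chr9:1987504-1987803, plus strand: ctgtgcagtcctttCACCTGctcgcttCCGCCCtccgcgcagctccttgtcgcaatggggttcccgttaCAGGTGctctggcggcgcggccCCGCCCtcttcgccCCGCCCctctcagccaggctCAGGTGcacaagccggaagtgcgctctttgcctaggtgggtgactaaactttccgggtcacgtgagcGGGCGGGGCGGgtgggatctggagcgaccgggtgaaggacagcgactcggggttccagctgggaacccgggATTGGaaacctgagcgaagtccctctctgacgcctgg
The E-box was also found in windows of genes called higher, with 3 copies for Prkcz and 1 each for Prom1, Pard6a and Lin7b. The windows of Arhgef2, Msn and Lin7c, which were called lower, held none. Snail and Zeb factors are known repressors of Crumbs genes, and nothing here measured their binding. Whether they had a part in the change of Crb3 was not tested.

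In the Scribble complex none of 5 measured genes was called by limma, beside 25.9% of all genes. Of the 5, 1, Dlg1, had an unadjusted limma p under 0.05, beside 6112 of all 15154 genes. None of the 4 well above background on all arrays in both conditions was called, beside 48.8% of all such genes. With so few genes, these counts do not set the complex apart. Scrib, the scaffold for which the complex is named, gave -0.03, 0.10, 0.06 and 0.04 in the replicates and -0.24 on the swapped array. The 4 replicates lay around 0 with the swapped array below them, and the fitted ratio was -0.01 (95% interval -0.14 to 0.11, limma adjusted p = 0.877). Dlg1, a lateral scaffold, was above 0 on all 5 arrays, at 0.37, 0.31, 0.28, 0.14 and, on the swapped array, 0.02. Its ratio of 0.23 lay just outside the threshold (limma adjusted p = 0.0105), and without the swapped array it was 0.28 and passed (limma adjusted p = 0.000939). Llgl2, the Lgl protein of many epithelia, ranged from -0.09 to 0.29 with a fitted ratio of 0.04. The neural-type scaffolds Dlg3 and Dlg4 had ratios of -0.07 and -0.14, and Dlg4 was above background on 1 array in each condition.

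**Figure D2:**
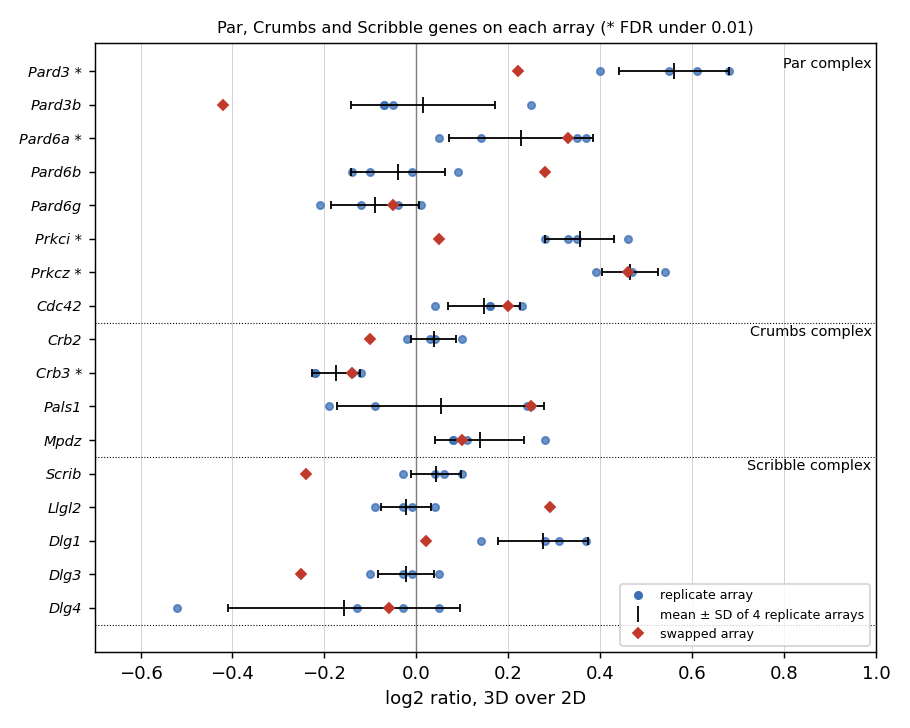
Log2 ratio of 3D over 2D (horizontal axis) for each measured Par, Crumbs and Scribble gene, with blue points for the 4 replicate arrays, black bars for their mean ± SD and red diamonds for the swapped array. Pard3, Prkcz, Prkci and Pard6a lie above 0 on every array and Crb3 lies below 0, while Scribble genes other than Dlg1 scatter around 0.

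The Lin7 and Cask scaffolds form a complex that places receptors and channels on the lateral membrane and also contacts Pals1. All 3 measured members were called, in opposite directions, beside 25.9% of all genes. Only 2 of the 3 were well above background on all arrays in both conditions, where 48.8% of all genes were called. Cask gave 0.29, 0.44, 0.07 and 0.35 in the replicates and 0.27 on the swapped array. Replicate 3 was the lowest, near 0, and the fitted ratio of 0.28 (SE 0.05, limma adjusted p = 0.00252) was a 1.22-fold increase. Lin7c went the other way, with -0.46, -0.39, -0.73 and -0.69 in the replicates and -0.06 on the swapped array. The fall was thus much larger in the replicates, where it averaged -0.57 ± 0.17 (SD, n = 4), than with the dyes swapped. Its fitted ratio was -0.46 (SE 0.09, limma adjusted p = 0.00233). Lin7b was dim, well above background on 5 arrays in 3D and on 1 in 2D, and gave 0.20, 0.20, 0.18 and 0.09 in the replicates and 0.17 on the swapped array. It passed with a ratio of 0.17 (limma adjusted p = 0.00779), but the size is uncertain, since it ran from 0.14 to 1.08 over the processing settings.

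Par-1 kinases keep Par3 off the lateral membrane and organise microtubules, and Lkb1 activates them. Mark2, the Par-1 kinase best known in epithelial cells, gave 0.49, 0.44, 0.33 and 0.32 in the replicates and 0.32 on the swapped array. All 5 lay well above 0, and the fitted ratio of 0.38 (SE 0.04) was a 1.3-fold increase with a limma adjusted p of 9.57e-05. Mark3 ranged from -0.30 to 0.05 and did not pass, and Mark1 was not above background on any array. Stk11, which encodes Lkb1, was below 0 on every array at -0.18 to -0.06, and its ratio of -0.10 did not pass (limma adjusted p = 0.0788).

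The 3 exchange factors moved apart. Arhgef2 encodes GEF-H1, a RhoA activator that binds microtubules and tight junctions, and it had the largest fall of the 37 genes. Its ratios were -0.76, -0.71, -0.64 and -0.66 in the replicates and -0.51 on the swapped array. The swapped array was the nearest to 0, and the fitted ratio of -0.66 (SE 0.05, limma adjusted p = 4.09e-06) was 1.58-fold lower in 3D. Arhgef11, another RhoA activator, known as PDZ-RhoGEF, gave 0.43, 0.40, 0.34 and 0.21 in the replicates and 0.21 on the swapped array. Every array was above 0, and its ratio of 0.32 (SE 0.05, limma adjusted p = 0.000563) was a 1.25-fold increase. Tiam1, a Rac activator that binds Par3, gave 0.07, 0.36, 0.23 and 0.19 in the replicates and -0.09 on the swapped array. Tiam1 did not pass, with a ratio of 0.15 (limma adjusted p = 0.101).

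**Figure D3:**
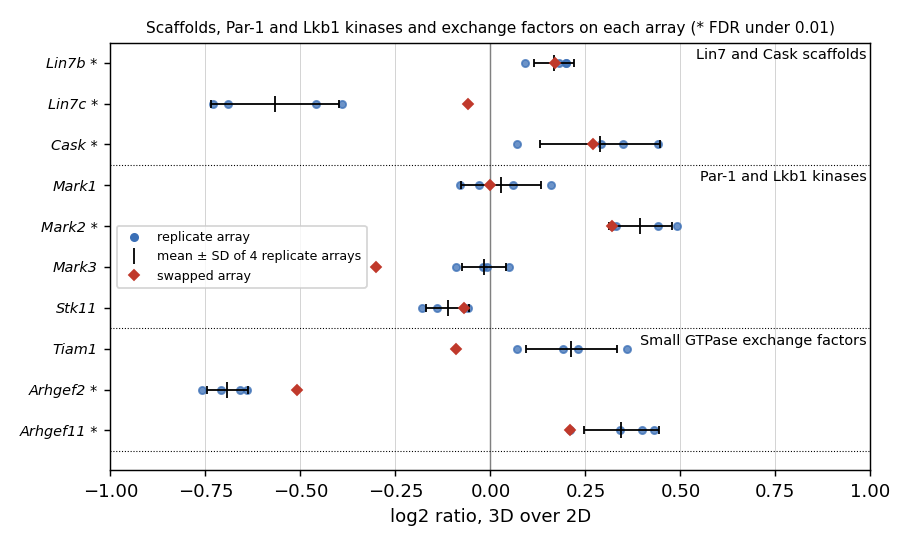
Log2 ratio of 3D over 2D (horizontal axis) for each measured Lin7 and Cask scaffold, Par-1 or Lkb1 kinase and exchange factor, with blue points for the 4 replicate arrays, black bars for their mean ± SD and red diamonds for the swapped array. Arhgef2 and Arhgef11 lie on opposite sides of 0, and the swapped value of Lin7c, -0.06, stands apart from its replicates.

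The polarity complexes and the apical side were then set beside each other. Of the 17 measured Par, Crumbs and Scribble genes, 4 were higher and 1 was lower (29.4%), with a median of 0.04 and a range of -0.17 to 0.49. Of the 10 measured ERM, Nherf and apical membrane genes, 4 were higher and 1 was lower (50%), with a median of 0.03 and a range of -0.38 to 1.40. Among genes well above background on all arrays in both conditions, the called shares were 35.7% of 14 and 62.5% of 8, on either side of the 48.8% for all such genes. Both medians lay close to that of all genes, at 0.00. They differed in spread: no complex gene exceeded 0.49, while Prom1, Folr1 and Dpp4 lay at 0.94 to 1.40. Within the apical group the median was 0.94 for the membrane proteins and -0.05 for the linkers and adaptors. With 5 genes each, these are the values of Dpp4 and Nherf1. The difference between the groups is a description and was not tested.

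The swapped array had the dyes reversed, but it was part of the fit that made the calls. Its sign on called genes is therefore no independent check on dye. The swapped array had a positive ratio for all 12 higher genes and a negative one for all 4 lower genes. Over all genes, 3805 of the 3918 called had the same sign on all 5 arrays. In a limma model with a dye term, 14 of the 37 genes were called for 3D against 2D, beside 26% of all genes. A dye effect was called for 0 of the 37 genes, beside 1.9% of all genes. An unadjusted limma p under 0.05 for it was found in 12 of the 37, beside 4146 of all 15154 genes. The largest gaps between replicates and swapped array among the called genes were those of Lin7c, Pard3 and Prkci, whose swapped values of -0.06, 0.22 and 0.05 were all nearer to 0 than any replicate. Since only 1 array was swapped, dye and array cannot be told apart in that term.

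**Figure D4:**
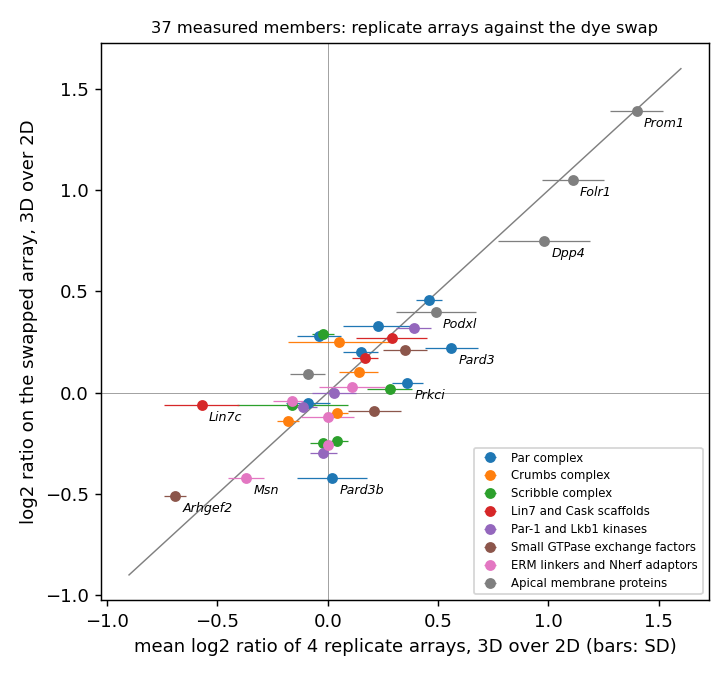
Log2 ratio on the swapped array (vertical axis) against the mean log2 ratio of the 4 replicate arrays (horizontal axis, bars are SD) for the 37 measured genes, both 3D over 2D and coloured by group. Prom1, Folr1 and Dpp4 lie at the upper right on both axes, and Lin7c lies at -0.57 on the replicates and -0.06 on the swapped array.

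Further genes of the same pathways were read as whole lists. Of 27 other polarity genes measured, 4 were higher and 2 lower (22.2%, beside 25.9% of all genes), with a median of 0.01. For the 22 well above background on all arrays in both conditions, the called share was 27.3%, beside 48.8% of all such genes. Among the higher ones were Ywhae, a 14-3-3 protein of the kind that binds phosphorylated Par3, at 0.30 (limma adjusted p = 0.000376), Smurf1, a ubiquitin ligase for RhoA, at 0.30 (0.00221), and Cab39, an Lkb1 partner, at 0.23 (0.00663). Lower were Cab39l, its paralogue, at -0.24 (limma adjusted p = 0.00459), and Rac1, at -0.19 (0.00301), and both of these had a ratio above 0 with median centring in place of loess. The call of Cab39 was lost on leaving out any 1 of the 4 replicates, that of Smurf1 without replicate 2 or 3, that of Cab39l without replicate 1, 3 or 4 and that of Rac1 without replicate 2, 3 or 4. Smurf1 had 2 probes, and their mean gave 0.12 and did not pass (limma adjusted p = 0.0805). Of 16 kinases and partners of ERM proteins, limma called none, beside 25.9% of all genes. An unadjusted limma p under 0.05 was found in 2, beside 6112 of all 15154 genes. Only 7 of the 16 were well above background on all arrays in both conditions, and 5 were on no array. None of the 7 was called, beside 48.8% of all such genes. The largest changes among the 16 were Cd44, a hyaluronan receptor that binds ERM proteins, at -0.18 (limma adjusted p = 0.0842), and Ppp1r12a, a myosin phosphatase subunit, at 0.16 (0.0337).

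Genes of microvilli and the apical surface outside the set gave 8 higher and 1 lower of 28 measured (32.1%, beside 25.9% of all genes), and 14 of the 28 were above background in neither condition. Of the 11 that were well above background on all arrays in both conditions, 9 were called (81.8%, beside 48.8% of all such genes). Muc20, a cell-surface mucin, rose more than any gene of the set, at 1.86, 2.44, 2.42 and 2.33 in the replicates and 2.08 on the swapped array. Its fitted ratio was 2.22 (limma adjusted p = 1.06e-07), a 4.67-fold increase. Cd24, a sialoglycoprotein with a glycolipid anchor, had 1.40, 1.41, 1.21 and 1.28 in the replicates and 0.71 on the swapped array, with a ratio of 1.20 (limma adjusted p = 7.56e-06). Pls3, an actin bundler, had a ratio of 0.87 (limma adjusted p = 9.74e-07). Cd55, which protects cells from complement, was lower at -0.41 (limma adjusted p = 6.03e-05).

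Each called gene was followed through 17 other processing settings. Prom1, Folr1, Dpp4, Podxl, Pard3, Prkcz, Mark2, Arhgef11, Arhgef2 and Msn passed in the same direction in all of them but 1, median centring in place of loess without a dye term, under which 7 of all genes and none of the 37 passed in limma, 15 of the 37 having an unadjusted p under 0.05. Some of these passes were fixed in advance. An FDR of 0.05 only loosens the threshold of the same fit. Leaving out normalization between arrays gave the same ratios and calls, as the quantile step changed average intensities alone. Prom1 ranged from 1.20 to 1.84 over the settings, Folr1 from 1.05 to 1.51, Podxl from 0.43 to 0.97 and Arhgef2 from -0.73 to -0.13. The other 6 called genes, Pard6a, Prkci, Crb3, Lin7b, Lin7c and Cask, lost their call in more than 1 setting. Of these, Crb3, Lin7b and Prkci lost it on leaving out any 1 of the 4 replicates, Cask without replicate 1, 2 or 4, Pard6a without replicate 1, 3 or 4 or the swapped array, and Lin7c without replicate 3 or 4, with ratios for Lin7c of -0.40 and -0.41.

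**Figure D5:**
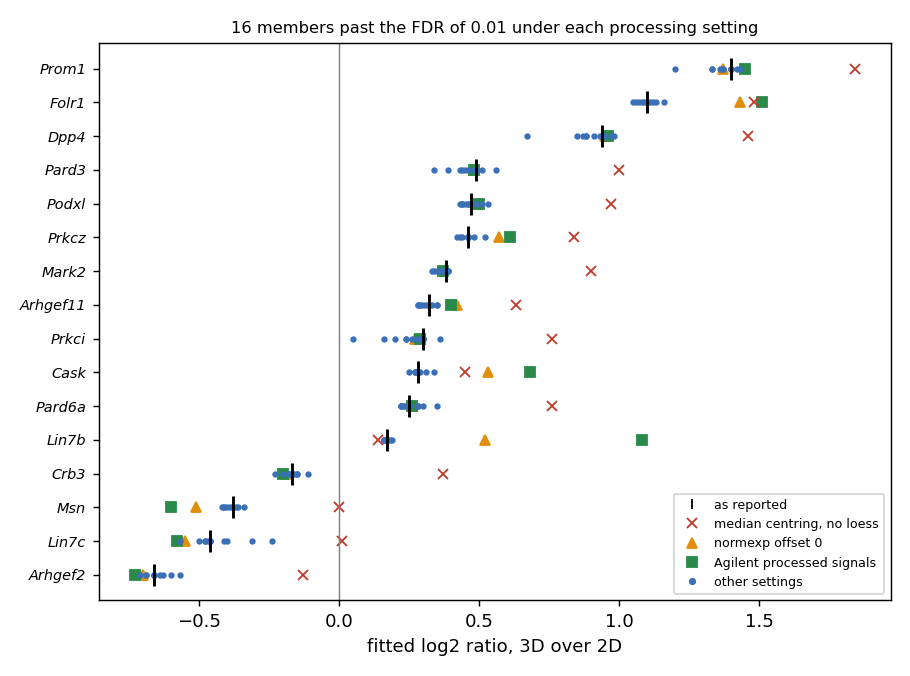
Fitted log2 ratio of 3D over 2D (horizontal axis) for the 16 called genes under each processing setting, with black bars for the reported value, red crosses for median centring, orange triangles for an offset of 0, green squares for Agilent processed signals and blue dots for the other settings. Crb3, Lin7c and Msn reach 0.37, 0.01 and 0.00 with median centring, and the other genes keep their sign.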

How the data were processed

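RNA of FRT cells was measured on 5 Agilent 2-colour rat arrays, 4 with a 3D replicate in Cy5 against the 2D pool in Cy3 and 1 with pools and dyes swapped. The authors' spot and background intensities are deposited as median pixel values from Agilent Feature Extraction 10.7.3.1 (per the file headers), not normalized. Its processed intensities and their log10 ratios of Cy5 over Cy3 are also deposited. The deposited value table holds the authors' log2 ratios, which limma gave after normexp background correction, loess and quantiles, and its 5 columns run 3D over 2D. No column belonged to another sample (0 such columns).

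The median signals were processed with limma 3.58.1 under R 4.3.3: normexp with an offset of 50, loess with controls at weight 0, and quantiles on average intensities. The plan had named mean signals, which were not used here. Spots flagged as outliers (1.12% to 1.6%) were left out, spots of a probe were averaged, and each gene took the value of its brightest probe. A probe was well above background where at least 0.5 of its spots were. The offset compresses ratios of dim genes. Arrays were designed on rn4, and symbols and promoters come from RefSeq tables of GRCr8, matched by accession for 59.3% of 30367 probes, and 93.8% of those with a curated accession. Probe sequences and proteins were not used here, and some genes of the lists are not reported here.

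One coefficient over the 5 arrays was fitted in limma with the sign of the swapped array turned and p-values adjusted over 15154 genes by Benjamini-Hochberg, at an FDR of 0.01 (prior degrees of freedom 5.12). The fit was tested on simulated data. These were independent noise with known changes, so they say nothing about dye or the shared pool. Intervals are at 95%. Alternatives changed the offset, signals, normalization, probe rule, filter, prior, threshold, dye term and arrays. Median centring with a dye term was chosen after seeing the data. Genes and lists were chosen with earlier results of these data known. Values are printed per array for every called gene and for Ezr, Crb3, Podxl, Prkci, Pard3 and Scrib, and for Dlg1, Pals1 and Tiam1, which were added after their values were seen. Of each further list, at most 3 rising and 3 falling genes of largest change among those well above background were named, or the 2 largest changes where none passed, and Cab39 was added after its value was seen. The number of arrays limits the precision.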

Additional observations from a re-analysis of the deposited data

Results flagged for a closer look

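In 4 of 52 genes examined, 1 replicate array lay far from the other 3 relative to their whole range. Chance alone marks about 1 gene in 20. Pard3b had a log2 ratio of 0.25 in replicate 2, against -0.07 to -0.05 in the others. Mpdz had 0.28 in replicate 1, against 0.08 to 0.11. Cab39l had -0.11 in replicate 2, against -0.34 to -0.30, and Cd44 had -0.17 in replicate 4, against -0.31 to -0.29. Pard3b, Mpdz and Cd44 were not called, and Cab39l was called lower.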

How the results depend on the processing

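The 5 arrays may stand for only 4 follicle cultures, all set against 1 pool, dim genes have compressed ratios, and calls at ratios near 0.2 lie close to the threshold. Median centring in place of loess gave 7 calls over all genes against 3918, 0 genes of the set higher and 0 lower, medians of 0.53 for the Par, Crumbs and Scribble genes and 0.51 for the ERM, Nherf and apical membrane genes, and turned Crb3 to 0.37, Lin7c to 0.01, Msn to 0.00, Cab39l to 0.29 and Rac1 to 0.31. With a dye term added to it, 3505 genes passed, with 10 genes of the set higher and 2 lower, and the apical median was -0.06. Crb3 was then at -0.11, Lin7c at -0.24, Msn at -0.34, Cab39l at -0.12 and Rac1 at -0.14, of which Msn alone passed. The cause of these shifts was not tested. An offset of 0 gave 2222 calls over all genes, 2 genes lower and a complex median of 0.08. Agilent processed signals gave 2 genes lower and medians of 0.08 and 0.13, removal of dim genes gave medians of 0.11 and 0.28, and a dye term gave a complex median of 0.12. Leaving out a replicate gave 2 to 3 genes lower against 4, with 2 without replicate 3 and 2 without replicate 4, 8 to 9 higher against 12, and 3006 to 3308 calls over all genes. The share of calls that were higher was 55.6%, and 49.2% in the authors' value table. No paired analysis was possible because the 2D cultures were pooled.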

Other observations

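In several genes the replicates fell apart in the same way. Pals1 had log2 ratios of 0.25 and 0.24 in replicates 1 and 2 and of -0.19 and -0.09 in replicates 3 and 4. Among the marker genes, Cldn7, a claudin of the lateral membrane, had -1.59, -1.03, -0.09 and 0.04, and Col3a1, a fibrillar collagen, had 1.09, 0.78, -0.07 and -0.10. These genes were singled out after their values were seen, and what set the replicates apart was not tested.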
